A study of Mus musculus with 4 samples.

Results

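The 410 regions described here are places on mouse chromatin where the ATPase RUVBL2 was found in hypothalamus by both chromatin immunoprecipitation (ChIP-seq) libraries, and where the nearest gene is short. A shared region is the joined interval of overlapping peaks of both lists. A region was taken when its midpoint lay within 1 kb of an end of exactly 1 protein-coding gene of a RefSeq GRCm38.p6 gene table and that gene measured 10 kb or less. Of 3111 shared regions, 410 met this rule, at 409 genes. Another 1619 regions had a single longer gene within 1 kb, 500 had 2 genes, 14 had 3, and 568 had none. The chromatin came from hypothalamus of wild-type male C57BL/J mice aged 8 weeks, fixed in formaldehyde. The series holds 2 RUVBL2 ChIP libraries and 2 input libraries, all of 1 genotype and with no treatment named, and the ChIP libraries gave 3943 and 6403 peaks. The labels do not say whether replicates 1 and 2 stand for separate animals or for pools. There is no other condition, so the values are descriptions with counting intervals and no test was made.

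RUVBL2 is an AAA+ ATPase that works in a ring with its partner RUVBL1. The ring is part of the INO80, SRCAP and TIP60 complexes, which move nucleosomes, exchange histone variants and acetylate histones at promoters, and of the R2TP chaperone complex, which helps to assemble large protein and RNA machines. Many of the shortest mammalian genes fall into 2 contrasting kinds. One is made up of housekeeping genes, such as those for ribosomal proteins, whose starts lie in CG-rich DNA called CpG islands. The other holds tissue-restricted genes in clusters, such as olfactory receptors, whose starts are poor in CG.

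The sequences that precede the starts of members show the range of promoters at which regions lay. Each run below is the 150 bases before a start in the RefSeq GRCm38.p6 promoter table, on the strand of the gene and 5′ to 3′. Capitals mark matches, on either strand, to any of 9 searched motifs. These are CCAAT (bound by NF-Y), GGGCGG (the GC box), TATAAA (the TATA box), CCGGAAG (ETS factors), ATGGCGG (the YY1 core), GCGCATGC (the NRF1 core), TGACGTCA (the cAMP response element), TCTCGCGA (related to the site of ZBTB33) and CACGTG (the E-box). A match is a match of letters only, and the bases shown need not hold the summit of a region. The first 4 are from the 6 members with the best ranks over both lists, shown because their regions were among the strongest: Pcbp1 (chr6:86526190-86526339, minus strand), Eif4a2 (chr16:23107318-23107467, plus), Dazap2 (chr15:100615512-100615661, plus) and Atf4 (chr15:80255034-80255183, plus).
Pcbp1: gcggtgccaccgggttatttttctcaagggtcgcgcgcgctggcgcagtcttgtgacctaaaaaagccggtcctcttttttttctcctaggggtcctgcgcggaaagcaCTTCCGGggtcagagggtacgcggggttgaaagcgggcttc
Eif4a2: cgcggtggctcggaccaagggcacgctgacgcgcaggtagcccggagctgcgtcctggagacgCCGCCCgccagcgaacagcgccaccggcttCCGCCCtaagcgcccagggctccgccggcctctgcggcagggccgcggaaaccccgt
Dazap2: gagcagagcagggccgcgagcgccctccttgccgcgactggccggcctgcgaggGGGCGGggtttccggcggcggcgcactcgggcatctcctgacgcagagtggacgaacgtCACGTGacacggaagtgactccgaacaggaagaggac
Atf4: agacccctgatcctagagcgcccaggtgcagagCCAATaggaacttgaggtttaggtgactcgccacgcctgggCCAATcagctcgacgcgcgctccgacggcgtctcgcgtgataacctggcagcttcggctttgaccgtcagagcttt

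The next 4 are from ribosomal protein genes with a region. Rps3a1 (chr3:86142669-86142818, minus), Rps6 (chr4:86857368-86857517, minus) and Rpl26 (chr11:68901416-68901565, plus) were chosen after the search because they hold TCTCGCGA or its complement close to the start. Rpl24 (chr16:55966125-55966274, plus) stands for the CG-poor end of the range, with 3 CG dinucleotides in these bases.
Rps3a1: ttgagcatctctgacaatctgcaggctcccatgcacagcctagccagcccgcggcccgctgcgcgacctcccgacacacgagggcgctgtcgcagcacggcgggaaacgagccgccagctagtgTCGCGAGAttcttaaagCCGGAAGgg
Rps6: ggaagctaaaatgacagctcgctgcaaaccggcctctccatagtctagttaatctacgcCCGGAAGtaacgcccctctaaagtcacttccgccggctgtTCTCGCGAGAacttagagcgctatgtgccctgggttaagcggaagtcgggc
Rpl26: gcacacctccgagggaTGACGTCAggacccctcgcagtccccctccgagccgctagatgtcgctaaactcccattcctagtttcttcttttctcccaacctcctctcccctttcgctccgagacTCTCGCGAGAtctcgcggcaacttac
Rpl24: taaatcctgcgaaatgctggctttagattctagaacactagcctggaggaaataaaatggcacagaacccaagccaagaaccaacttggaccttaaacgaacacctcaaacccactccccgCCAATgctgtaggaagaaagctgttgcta

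The last 4 are regulated genes of this tissue. Jun (chr4:95052223-95052372, minus) is an immediate early gene with a region at its start, and Pomc (chr12:3954795-3954944, plus) is a member whose region lay at the far end of the gene. Fos (chr12:85473740-85473889, plus) and Npy (chr6:49822560-49822709, plus) are short genes without a region and are shown for contrast.
Jun: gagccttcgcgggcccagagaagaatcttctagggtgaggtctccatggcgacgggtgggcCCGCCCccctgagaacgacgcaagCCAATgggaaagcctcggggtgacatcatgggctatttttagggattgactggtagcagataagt
Pomc: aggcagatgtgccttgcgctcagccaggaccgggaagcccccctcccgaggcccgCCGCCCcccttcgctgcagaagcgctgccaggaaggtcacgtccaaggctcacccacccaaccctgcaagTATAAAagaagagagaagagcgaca
Fos: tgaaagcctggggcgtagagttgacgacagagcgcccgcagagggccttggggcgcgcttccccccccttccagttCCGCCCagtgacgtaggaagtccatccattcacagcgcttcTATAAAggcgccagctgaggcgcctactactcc
Npy: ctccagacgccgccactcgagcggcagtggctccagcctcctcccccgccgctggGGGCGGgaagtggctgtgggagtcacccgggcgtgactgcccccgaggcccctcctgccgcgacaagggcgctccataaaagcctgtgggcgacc

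These 150 bases held 14, 22, 19 and 14 CG dinucleotides at Pcbp1, Eif4a2, Dazap2 and Atf4, but also 11 at Fos and 14 at Npy. Pomc and Fos both hold TATAAA just before the start, and neither had a region at its start.

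The first comparison was with all protein-coding genes of this length. Of 7862 protein-coding genes of 10 kb or less, 409 held a region as its single near gene, or 5.2% (95% Clopper-Pearson interval over genes 4.72 to 5.72). Of 13917 longer genes, 1613 did, or 11.6% (11.1 to 12.1). The intervals cover counting over genes only, and neighbouring genes are not independent. When regions shared with a close neighbour were also counted, the shares were 9.56% (752 genes) of short and 16.4% (2284 genes) of longer genes. A short gene therefore held a region less often than a longer one under both counts.

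Within the short genes the share rose with length. Of 1566 genes of up to 1 kb, 5 held a region (0.319%, 0.104 to 0.744), against 33 of 991 from 1 to 2 kb (3.33%), 156 of 2420 from 2 to 5 kb (6.45%, 5.5 to 7.5) and 215 of 2885 from 5 to 10 kb (7.45%, 6.52 to 8.47). It went on rising among longer genes, to 15.2% at 50 to 100 kb, and was 10.5% (9.35 to 11.8) above 100 kb. The 5 shortest genes with a region were the histone genes H4f16 (438 bp), H2ac18 (555 bp) and H1f2 (724 bp), and Uqcc3 (919 bp) and Sdhaf1 (966 bp), assembly factors of respiratory complexes.

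A large block of short genes held no region. None of 1497 short genes of clustered tissue-restricted families (olfactory, vomeronasal and taste receptors, keratin-associated proteins, defensins) did, which allows a share of up to 0.2% by 3 counts of the total. Without these families, 409 of 6365 short genes held a region (6.43%, 5.84 to 7.06), still below the 11.7% of longer genes. The genes of these families lie in clusters, so their number overstates the number of independent cases.

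**Figure D1:**
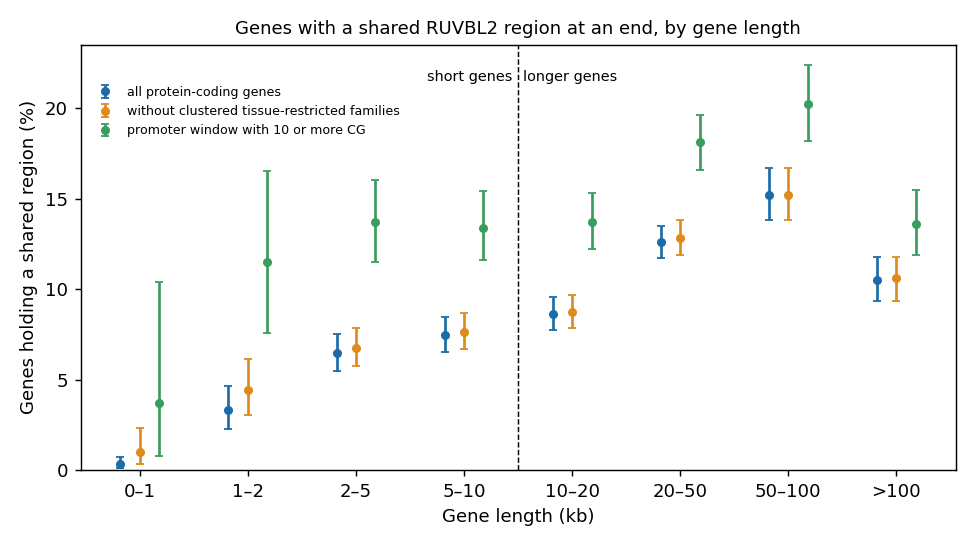
Share of protein-coding genes holding a shared RUVBL2 region as its single near gene (vertical axis, percent) by gene length (horizontal axis, kb). Points are shares and bars 95% Clopper-Pearson intervals, for all genes (blue), without clustered tissue-restricted families (orange) and for genes whose promoter window holds 10 or more CG (green). The blue shares rise from 0.319% to 15.2% at 50 to 100 kb, and the green shares lie above them in every class.

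Short genes with a region and those without differed in the CG content of their starts. CG dinucleotides, the letters that CpG islands are rich in, were counted in the RefSeq window from 250 bases before to 50 after the start, which was listed for 338 of the 409 member genes and for 6414 of the 7862 short genes. The 330 members with a region at their start had a median of 23 CG dinucleotides in this window, with quartiles of 16.25 and 30 and a lowest value of 6. The 5795 short genes with no shared region within 1 kb had a median of 4, and 7 without the clustered families. Longer genes with a region at their start had 27. The median GC content was 60.7% at members, 50% at short genes without a region and 64.7% at these longer genes.

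By class of CG content, the share of short genes with a region was 0.0978% (3 of 3067) with 0 to 4 CG, 1.39% with 5 to 9, 9.28% with 10 to 19, 14.9% with 20 to 29 and 18.6% with 30 or more. The longer genes gave 0.887%, 2.69%, 9.62%, 16.9% and 24.5% in the same classes. The intervals of short and longer genes overlapped at 10 to 19 CG (7.65 to 11.1 and 8.51 to 10.8) and at 20 to 29 CG (12.6 to 17.4 and 15.5 to 18.3). They did not overlap at 30 or more (15.1 to 22.4 and 22.7 to 26.3). They also did not overlap at 0 to 4 CG (0.0202 to 0.286 and 0.526 to 1.4), nor there with neighbours allowed (0.373 to 0.966 and 1.16 to 2.33). With neighbours allowed, the share at 30 or more CG was 36.7% (32.3 to 41.2) for short and 33.1% (31.1 to 35.2) for longer genes. Those intervals overlap, so that the lower share of CG-rich short genes was seen only when regions near a neighbouring gene were left out.

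With at least 10 CG, a class limit chosen after the data were seen, 323 of 2483 short genes held a region (13%, 11.7 to 14.4), against 15 of 3931 with fewer (0.382%). In this CG-rich set the share was 13.7% at 2 to 5 kb, 13.4% at 5 to 10 kb and 13.7% at 10 to 20 kb. The rise was therefore not seen over these lengths, but it was seen beyond them. The share was 18.1% (16.6 to 19.6) at 20 to 50 kb, 20.2% (18.2 to 22.4) at 50 to 100 kb and 13.6% above 100 kb. At 1 to 2 kb it was 11.5% (7.6 to 16.5), and at up to 1 kb it was 3.7%, or 3 of 81 genes (0.77 to 10.4). As a single near gene, none of the 3067 short genes with fewer than 5 CG had a region at its start, which allows a share of up to 0.0978%. With neighbours allowed and at either end, 19 of them had one (0.619%, 0.373 to 0.966). The 3 counted above, Lor, Gm46933 and Slc26a1, had their region at the other end.

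**Figure D2:**
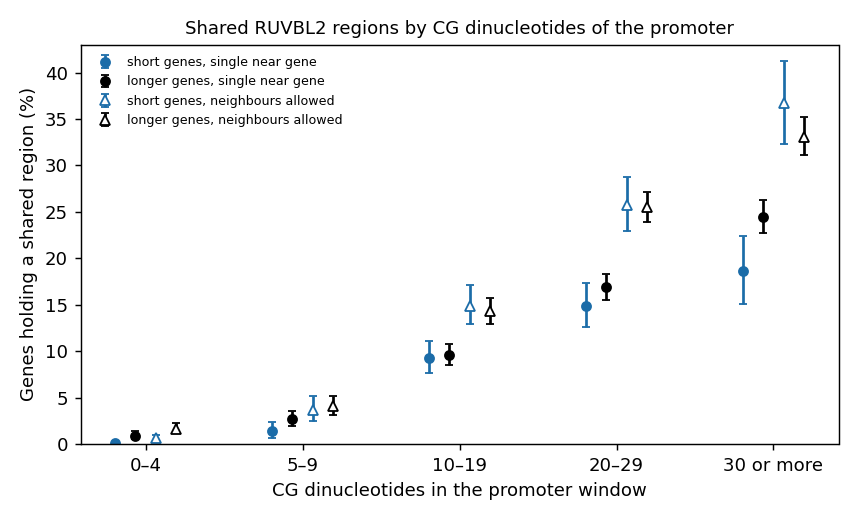
Share of protein-coding genes with a shared RUVBL2 region (vertical axis, percent) by the number of CG dinucleotides in the promoter window (horizontal axis). Circles count regions with a single near gene and triangles also count regions shared with a neighbour, in blue for short and black for longer genes, with 95% Clopper-Pearson intervals. With a single near gene the short genes go from 0.0978% to 18.6%.

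The regions lay at gene starts. The rule used both ends of a gene, and strand was known for 338 of the 410 regions. Of these, 330 were nearer the start (97.6%, 95.4 to 99) and 8 nearer the other end. At genes above 2 kb, where the ends are well apart, 303 of 308 were nearer the start, and at longer genes 1307 of 1309 were. Most regions were centred inside the gene: the midpoint lay downstream of the start in 263 of 330 (79.7%, 74.9 to 83.9), at a median of 168.5 bp into the gene (quartiles 38 and 252). The summits lay at medians of 157.5 bp in replicate 1 and 142.5 bp in replicate 2. The start itself fell inside the region in 272 of 330 (82.4%). Longer genes had a median midpoint of 180 bp with 82.0% downstream, close to the short genes, while their start fell inside the region in 74.3%.

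**Figure D3:**
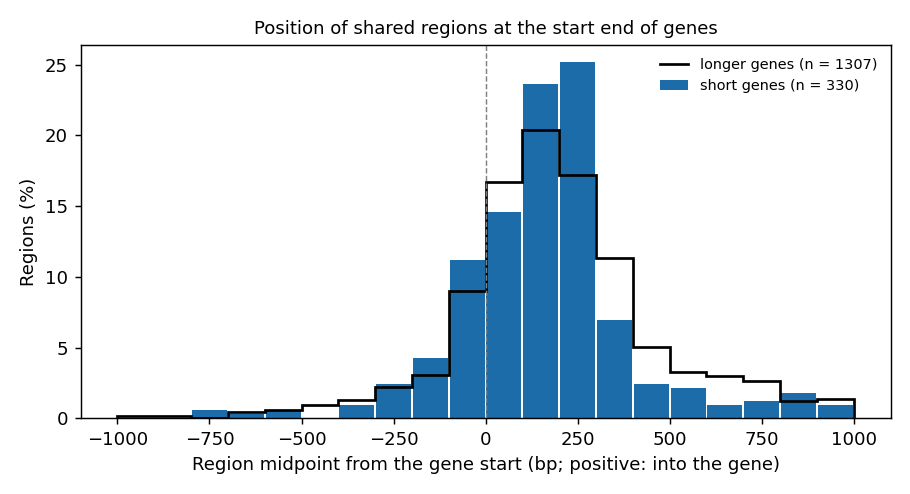
Position of region midpoints relative to the gene start in 100 bp bins (horizontal axis, bp, positive into the gene), as a share of regions (vertical axis, percent). Filled bars are the 330 regions at short genes and the line the 1307 at longer genes. Both peak just inside the gene, and the short genes have their median at 168.5 bp.

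Because the genes are short, a region took up a visible part of them. The regions had a median width of 677.5 bp (quartiles 517 and 870.8, range 292 to 1957), against 706 bp at longer genes. They covered a median of 9.1% of the gene, against 1.28% at longer genes. In 9 cases the region covered at least 50% of the gene, and in none all of it. The highest cover was 81.1%, at the histone gene H4f16. Znhit2, which encodes a zinc finger HIT protein that binds R2TP, was covered to 61.5%. Further examples, chosen after their values were seen, are Map1lc3a, the autophagy protein LC3A (51.2%), and the variant histone gene H2ax (54.95%). The widest regions were at Pcbp1 (1957 bp), the chaperone gene Hsp90ab1 (1898 bp), Ptma (1879 bp), Rmi1 (1744 bp) and Hnrnpa0 (1668 bp).

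The strength of a region is given as the fold enrichment of its peak in each list, the authors' value. This is the number of reads at the summit plus 1, over the background the peak caller estimated plus 1. The median was 4.95 in replicate 1 (quartiles 4.32 and 5.86, range 2.90 to 12.02) and 5.35 in replicate 2 (4.43 and 6.66, 2.5 to 21.6). At longer genes the medians were 5.04 and 5.42, which lie well inside the quartiles of the short genes. The median summit rested on 16 reads in replicate 1 and 26 in replicate 2, and the interval of a single fold is accordingly wide. Across the 410 regions the folds of the lists had a Pearson correlation of 0.507 and a Spearman correlation of 0.353, over regions of the same tissue and antibody. The summits of both lists lay a median of 78 bp apart, and within 100 bp of each other in 248 regions (60.5%), against 95 bp and 51.8% at longer genes.

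The members were ranked by the worse of their ranks in the lists, and Pcbp1, Eif4a2, Polr2m, Cox20, Dazap2 and Atf4 came first. The region of Pcbp1 (chr6:86525720-86527676), an intronless gene for a poly(C)-binding RNA-binding protein, stood at 9.84-fold in replicate 1, with a 95% counting interval of 7.36 to 12.9, and at 21.6-fold in replicate 2, with 17.3 to 26.6. The latter was the highest fold of all members in replicate 2. Eif4a2 (chr16:23107088-23108524), an RNA helicase of translation initiation, had 10.3 (7.45 to 13.98) and 16.3 (12.8 to 20.4). Polr2m (chr9:71485218-71486322), which encodes an RNA polymerase II associated subunit, had 11.7 (8.34 to 16.03) and 12.2 (9.32 to 15.7). Atf4 (chr15:80254748-80256100), the transcription factor of the integrated stress response, had 11.7 (8.34 to 16.03) and 10.7 (7.92 to 14.2). Each of these 4 lay above the upper quartile of the members in both lists, intervals included. In replicate 1 the intervals of all 4 overlapped each other, so their order there is not resolved.

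Other RNA-binding proteins among the 20 best-ranked members were Cnbp, a zinc finger nucleic acid binding protein (8.94 in replicate 1 and 14.2 in replicate 2), the splicing factor Srsf6 (8.54 and 11.0) and the heterogeneous nuclear ribonucleoprotein Hnrnpa0 (8.63 and 10.9). Chrac1, a histone fold subunit of a nucleosome remodelling complex, had 8.12 and 10.6. The ribosomal proteins Rps3a1 (8.32 and 8.69) and Rpl24 (10.2 and 7.36) were also among them, as were Ube2m (7.71 and 8.41), the enzyme that conjugates NEDD8, and Cox20 (10.4 and 9.40), an assembly factor of cytochrome c oxidase. Membrane traffic and organelle genes were Atp6v0c, the proton channel subunit of the vacuolar ATPase (7.22 and 12.3), and the SNARE gene Use1 (7.10 and 7.36). The rest were Dazap2 (8.96 and 10.06), Ankrd37 (8.63 and 13.99), Fndc10 (12.02 and 11.3), Ptma (9.12 and 7.44), Tmem80 (8.79 and 7.33) and Trp53inp2, an autophagy regulator. Trp53inp2 had 7.37 (4.91 to 10.7) in replicate 1 and 18.3 (14.2 to 23.2) in replicate 2, next to Pcbp1 there, while only Atp6v0c and Use1 of these 20 had lower folds in replicate 1.

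**Figure D4:**
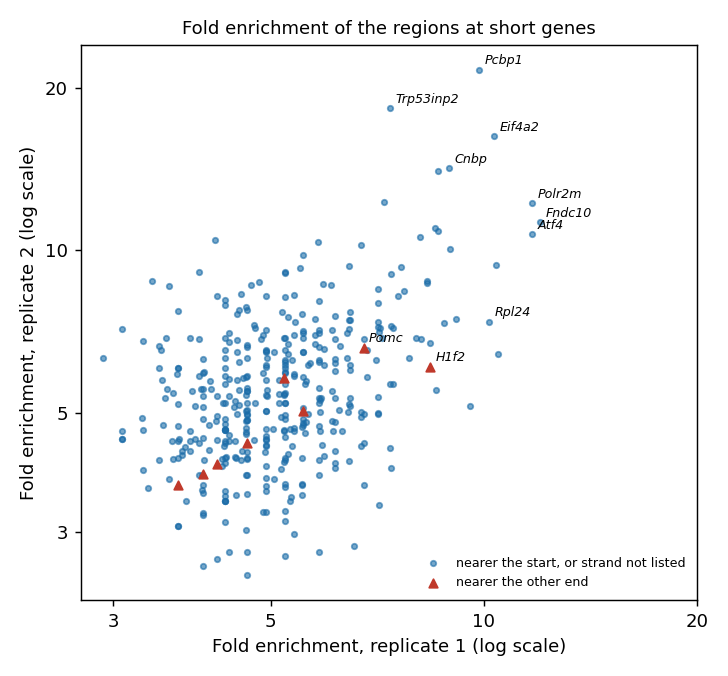
Fold enrichment of the 410 regions at short genes in replicate 1 (horizontal axis) and replicate 2 (vertical axis), both on log scales. Circles are regions nearer the start or of unlisted strand and triangles the 8 nearer the other end. Pcbp1 stands highest in replicate 2 with 21.6, and Pomc lies above the medians of both lists.

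The members were then counted in 17 gene lists, against the 5.2% of all short genes. That share includes the clustered families and the CG-poor starts. Among short genes with at least 10 CG in the window it was 13% (11.7 to 14.4). The intervals of cytosolic ribosomal protein genes (30.9 to 52.4), translation factor genes (16.4 to 57.3) and ubiquitin genes (22.3 to 95.7) lie above 13%. That of respiratory chain genes (13.9 to 34.9) also does, but it overlaps the interval of the CG-rich genes. The interval of the clustered tissue-restricted families lies below 13%. Every other list has an interval that includes 13%, among them mitochondrial ribosomal protein genes (6.5 to 26.7) and proteasome genes (3.21 to 37.9). The lists were not compared within CG-rich genes. Counts with neighbours allowed compare with 9.56% of all short genes. At 10 to 19, 20 to 29 and 30 or more CG that share was 14.9%, 25.7% and 36.7%. In all, 120 of the 409 genes were in at least 1 list. Genes of protein synthesis were counted in 3 of the lists. Of 87 short genes for cytosolic ribosomal proteins, 36 held a region (41.4%, 30.9 to 52.4), and 46 did with neighbours allowed. Their folds had medians of 5.24 and 5.46 and ranged from 3.56 to 10.2 in replicate 1 and from 2.83 to 9.05 in replicate 2. Rps3a1 and Rpl24 led, and Rpl23a had 6.78 and 6.85. Their regions were compact, with a median width of 637 bp, and their summits lay a median of 59 bp apart in the lists. Of 23 translation initiation and elongation factor genes, 8 did (34.8%, 16.4 to 57.3): Eif4a2, Eif5 (10.5 and 6.43), Eif3f (6.42 and 7.03), Eif1 (5.86 and 8.05), Eif1b, Eef1a1, Eif5a and Eif4a1. Of 25 snoRNP and ribosome biogenesis genes, 5 did (20%, 6.83 to 40.7), with Utp3 (4.46 and 5.24), Exosc3 (5.86 and 4.72), Snu13 (3.998 and 3.82) and Nop56 (3.795 and 3.42) and all of these were below the members' medians in both lists except Exosc3 in replicate 1.

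Mitochondrial genes were counted in 3 lists. Of 69 short genes of the respiratory chain and ATP synthase, 16 held a region (23.2%, 13.9 to 34.9), led by Ndufs7, a complex I subunit (6.16 and 7.54), Atp5g2, the ring subunit of ATP synthase (5.51 and 9.27), Cox8a (4.63 and 6.66) and Ndufc1 (5.55 and 6.47). Cycs, cytochrome c itself, was among the 16, and 32 genes of this list held a region with neighbours allowed. Of 55 mitochondrial ribosomal protein genes 8 did (14.5%, 6.5 to 26.7), and 24 did with neighbours allowed. Mrpl58 (7.63 and 9.29), Mrps15 (6.85 and 5.82), Mrps30 (5.55 and 9.80) and Mrpl38 (4.92 and 5.75) led the 8. Of 16 mitochondrial import genes 4 did (25%, 7.27 to 52.4): Timm50 (6.47 and 7.68), Tomm7 (5.24 and 5.21), Tomm22 (4.48 and 7.599) and Timm21 (3.498 and 6.54).

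Genes of RNA processing, protein folding and protein turnover also held regions. Of 25 snRNP and SR splicing genes 7 did (28.0%, 12.1 to 49.4), with Srsf6 first, then Srsf5 (5.62 and 5.73), Snrpb (5.24 and 6.05) and Snrpe (6.25 and 5.05). Of 32 chaperone genes 7 did (21.9%, 9.28 to 40.0), among them Hspa8, the constitutive Hsp70, which was the only gene with 2 regions. The region centred 15 bp from a gene end had folds of 4.93 and 3.27, and the region centred 863 bp outside the gene had 4.85 and 6.85. Dnajb5 (5.55 and 5.82), Dnajb1 (4.94 and 5.50) and the chaperonin subunit Tcp1 (4.93 and 6.52) followed. Of 6 short ubiquitin and ubiquitin-conjugating genes 4 did (66.7%, 22.3 to 95.7), among them Ube2m, the polyubiquitin gene Ubb (3.91 and 5.13) and Ube2s (3.85 and 4.42). Of 20 proteasome genes 3 did (15.0%, 3.21 to 37.9): Psmd7 (7.40 and 7.23), Psmc3 (6.46 and 9.33) and Psme3 (5.24 and 5.93). The proteasome interval reaches below the share of all short genes.

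Of 11 short genes for subunits and partners of the complexes that contain RUVBL2, 3 held a region (27.3%, 6.02 to 61.0). They were Znhit2 (6.31 and 4.62), Mcrs1, an INO80 subunit (4.47 and 4.11), and Znhit3, an assembly factor of snoRNPs (5.54 and 3.52). Of 34 RNA polymerase, TFII and Mediator genes 3 did (8.82%, 1.86 to 23.7): Polr2m, Med11 (4.32 and 7.92) and Polr3d (4.01 and 3.67). The interval of this list includes the 5.2% of all short genes. Of 55 short Zfp zinc finger genes 10 did (18.2%, 9.08 to 30.9), led by Zfp768 (7.40 and 9.04), Zfp963 (6.47 and 6.12), Zfp3 (4.93 and 6.12) and Zfp213 (4.19 and 4.82). Longer genes of the lists held regions too, in 9 of 25 proteasome, 11 of 27 snRNP and SR splicing and 16 of 62 chaperone genes. So did 12 of 32 longer genes of the complexes that contain RUVBL2. The counts were 10 of 48 for longer translation factor genes and 3 of 25 for longer snoRNP genes, lower shares than at short genes. Regions in the lists were therefore not limited to short genes. These lists were chosen with earlier results in view, so the counts describe them and support nothing about them.

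**Figure D5:**
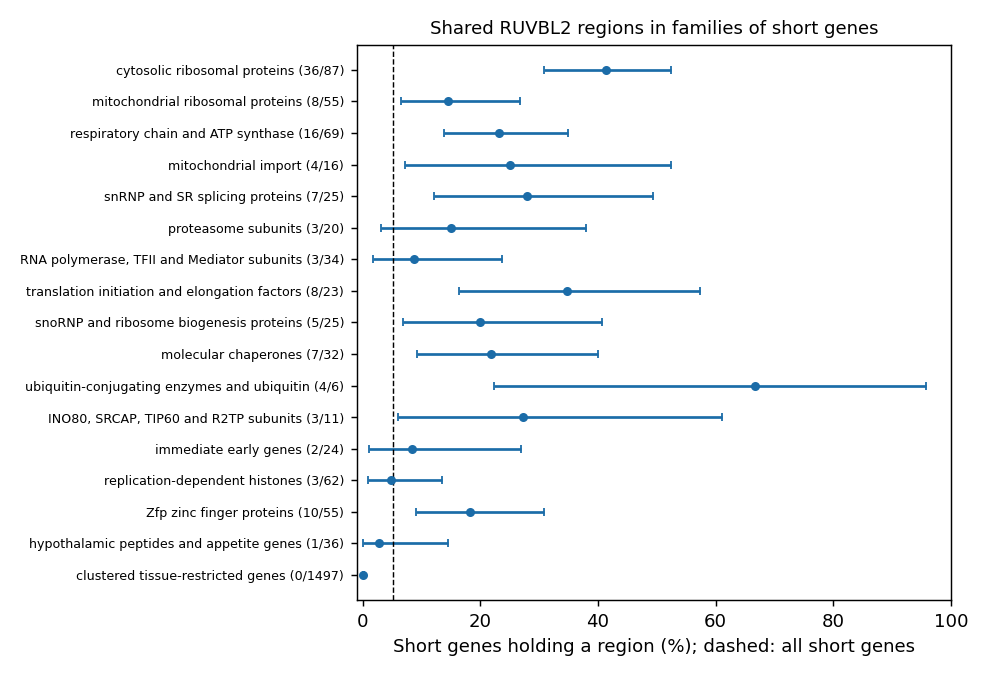
Share of the short genes of each of 17 lists that held a shared RUVBL2 region (horizontal axis, percent), with 95% Clopper-Pearson intervals and the counts beside each name. The dashed line is the 5.2% of all short genes. Cytosolic ribosomal protein genes stand at 41.4% and clustered tissue-restricted genes at 0.

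Immediate early, histone and hypothalamic peptide genes held regions in shares whose intervals include the 5.2% of all short genes. Of 24 short immediate early genes 2 did (8.33%, 1.03 to 27.0): Jun, with folds of 4.01 (2.22 to 6.77) and 5.37 (3.63 to 7.68), and the phosphatase gene Dusp1, with 4.26 (2.41 to 7.07) and 3.98 (2.41 to 6.24). The midpoint of the Jun region lay 540 bp before its start and that of Dusp1 250 bp into the gene. At Fos the nearest peak was 99326 bp away in replicate 1 and 99291 bp in replicate 2. Jund had a peak in both lists that fell just outside the limit, 1152 and 1236 bp from its end, with folds of 6.82 and 2.83. Actb, the housekeeping actin gene, had no region. Its nearest peaks lay 7825 bp away in replicate 1 and 1225 bp in replicate 2. Of 62 replication-dependent histone genes 3 did (4.84%, 1.01 to 13.5).

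Of 36 short genes of hypothalamic peptides and appetite, only Pomc held a region (2.78%, 0.0703 to 14.5). Pomc encodes proopiomelanocortin, from which α-MSH, a peptide that lowers food intake, is cut, and it is made by a small set of hypothalamic neurons. Its region (chr12:3959940-3960523) had folds of 6.77 (4.31 to 10.2) and 6.597 (4.32 to 9.69), on 21 and 24 reads at the summits. The folds exceeded the medians of the members in both lists, with intervals that include those medians. With strand now read from the RefSeq promoter table, the region lay 5286 bp downstream of the Pomc start and 412 bp inside the far end of the gene. The nearest listed start of another gene was 65545 bp away, and the nearest end of another gene, Efr3b, 2323 bp away. Npy, Oxt, Avp, Trh and Crh are short genes as well and had no region. Their nearest peaks in replicate 1 lay 558880, 10447, 16548, 27257 and 339841 bp away. Agrp (13150 bp) and Cartpt (11696 bp) are longer than 10 kb in this table, and neither had a peak nearby. In whole tissue, a site bound in few cells and a site bound weakly in many cannot be told apart, and a site bound in a small share of cells may give no peak.

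Pomc was 1 of 8 members whose region was nearer the far end of the gene. H1f2, a linker histone gene of 724 bp, had the highest fold of them in replicate 1, 8.40 (5.72 to 11.9), with 6.08 (4.08 to 8.75) in replicate 2, and its region lay 569 bp beyond the end. The region of Slc26a1, an anion exchanger gene, had 5.22 and 5.79 and lay 628 bp beyond the end. Those of Lor, the epidermal protein loricrin (4.62 and 4.39), and Prr7 (4.01 and 3.84) lay inside the gene. For Slc26a1, H1f2, Pomc, Lor and Prr7 no listed start of any gene lay within 1 kb. The other 3 had a start close by: Gm46933 (5.55 and 5.04) lay 22 bp from a listed start of G3bp2, Bola1 (4.198 and 4.02) lay 226 bp from a further listed start of Bola1, and H4f16 (3.70 and 3.66) is so short that its region lay 279 bp from the start. The start table is not complete, so an unlisted start near the 5 cannot be told apart from its absence.

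Host genes of small nucleolar RNAs (snoRNAs) were frequent among the members. Such RNAs guide chemical changes of ribosomal RNA, and in mammals most are cut from introns of host genes. Of the 409 member genes 28 have an annotated snoRNA gene within their span (6.85%, 4.6 to 9.74), against 35 of 7453 other short genes (0.47%, 0.327 to 0.653). Put the other way, 28 of the 63 short host genes held a region (44.4%, 31.9 to 57.5). The share was 5.2% of all short genes and 13% (11.7 to 14.4) of those with at least 10 CG in the window. Hosts were not compared with other genes of like CG content. Hosts that encode ribosomal proteins gave 15 of 31 (48.4%) and hosts that do not gave 13 of 32 (40.6%, 23.7 to 59.4), so the frequency was not limited to ribosomal protein genes. Among the 13 were Eif4a2, Eif5, Hspa8, Nop56 and Tcp1 and, named after their values were seen, Tpt1 (4.37 and 7.01), Slc25a3 (3.40 and 8.75) and Rabggtb (4.56 and 4.25). An end of a long noncoding RNA gene lay within 1 kb of 57 of the 410 regions (13.9%, 10.7 to 17.6), similar to the 15.3% at longer genes.

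Chromosome X was poor in members. It held 3 members among 398 short genes (0.754%, 0.156 to 2.19), namely Rpl10 (4.93 and 5.39), Magee1 (4.62 and 6.31) and F8a (4.62 and 5.49). No short gene of the 184 on Y held one, which allows up to 1.63%. The other chromosomes ranged from 3.61% (chromosome 7, 2.54 to 4.96) to 8.9% (chromosome 12, 5.27 to 13.9). The mice were male, with a single X chromosome in each cell, and the part of this in the low share was not tested.

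The motifs shown above were counted in the windows of the 330 members with a region at their start. GC boxes were present in 67.3% of members, 27.7% of the 5795 short genes without a region and 46.3% of all 17492 protein-coding genes with a listed window. ETS letters were present in 23.9%, 7.32% and 11.9% of the same sets, in that order. The YY1 core was present in 11.8%, 2.66% and 5.44%, and TATAAA in 8.18%, 22.8% and 13.3%. CCAAT was present in 44.5%, 41.4% and 39.2%. Longer genes with a region at their start had GC boxes in 75.2%, ETS letters in 19.1%, the YY1 core in 15.4% and TATAAA in 3.99%. They had CCAAT in 31.9% (29.4 to 34.5), below the short members (39.1 to 50.1). Motifs that contain CG are more frequent in CG-rich windows, so the counts were repeated in windows with at least 10 CG, with 319 members and 1915 short genes without a region.

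In these CG-rich windows most of the differences shrank. The sets were not matched in CG: the median was 23 at members (quartiles 17 and 31) and 19 at the others (14 and 26). Whether the gaps that remain go with this difference was not tested. GC boxes stood at 69.0% and 66.7%, TATAAA at 8.15% and 9.3%, the E-box at 12.2% and 11.7%, and CCAAT at 43.3% and 43.4%. For ETS letters the shares were 24.5% (19.8 to 29.5) and 18.6% (16.9 to 20.4), for the NRF1 core 8.15% (5.39 to 11.7) and 5.17% (4.22 to 6.26), and for the cAMP response element 5.33% and 4.07%, with overlapping intervals. Intervals did not overlap for the YY1 core, at 12.2% (8.84 to 16.3) of members and 6.68% (5.61 to 7.9) of the others, or for TCTCGCGA, at 4.39% (2.42 to 7.25) and 1.72% (1.19 to 2.41), where the bounds all but touch. Over all protein-coding windows the NRF1 core stood at 3.61%, the cAMP response element at 2.33%, TCTCGCGA at 1.53% and the E-box at 7.91%. Most YY1 matches lay after the start. With only the bases before it, the YY1 core was in 3.76% (1.96 to 6.48) of CG-rich members and 2.61% (1.94 to 3.43) of the others, and these intervals overlap. The letters ATGGCGG begin with a start codon, and the window reaches into transcribed sequence.

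The ribosomal protein genes carried much of the TCTCGCGA count. Of the 14 members with it, 6 were among the 25 ribosomal protein genes with a region at a listed start (24%), of which Rps3a1, Rps6 and Rpl26 are shown above. ETS letters were present in 9 of the 25 (36%) and the YY1 core in 7 (28%). In the respiratory chain genes the same counts were 0, 2 and 2 of 14. With ETS letters the median folds were 4.93 and 5.31, and without them 4.93 and 5.38. With the YY1 core they were 5.24 and 5.76 (39 members), against 4.93 and 5.31 without it. With TCTCGCGA they were 5.36 and 5.97 (14 members), against 4.93 and 5.32. These gaps are smaller than the quartile range of the members, and they were not tested.

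The limits of the rule cut through similar values. Just inside 10 kb were Slc25a29 (9998 bp, folds 4.32 and 3.42), Cldn12 (9961 bp, 4.09 and 4.26) and Nat8l (9932 bp, 5.04 and 4.66). Just outside were Ptbp1 (10003 bp, 4.73 and 7.17), Thoc3 (10003 bp, 4.37 and 4.63) and Irak1 (10007 bp, 4.62 and 4.11). At the limit of 1 kb, 9430078G10Rik (1000 bp from the gene end), Sft2d3 (983 bp) and Snx20 (965 bp) were inside, and Ptov1 (1148 bp), Tmem106c (1157 bp) and Gm31513 (1170 bp) outside.

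The remaining facts concern the libraries as a whole. Each list alone named more short genes, 901 in replicate 1 and 1409 in replicate 2 with neighbours allowed, of which 752 had a shared region, and 6312 of 7862 short genes (80.3%) had no peak of either list within 1 kb. None of 52 markers of 7 cell types of this tissue (neurons, astrocytes, oligodendrocytes, microglia, endothelial and mural cells, ependymal cells and tanycytes, red blood cells) held a shared region at any length. Replicate 2 alone had a peak at 4 of them and replicate 1 at 0, so the peak lists give no check of the labelled tissue through its markers. Among all 21779 protein-coding genes, 9.28% held a shared region as its single near gene and 13.9% did with neighbours allowed.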

How the data were processed

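RUVBL2 ChIP-seq of mouse hypothalamus was analysed from the deposited peak lists, 1 for each of 2 ChIP libraries. The peak names of the replicate 2 list begin with Hyp3 but the title of its sample with Hyp2, and the list was kept with the sample it was deposited under. Per the submitters' processing notes, the build was GRCm38 and the tools were MACS2 2.1.0, Bowtie2 2.3.4.1, Trimmomatic 0.33, bcl2fastq 2.17 and ChIPseeker. Their settings and the control for peak calling were not given in the sources used here. For each peak the authors deposited a fold enrichment over background, a −log10 p, a −log10 q and a score made from it. No peak had a −log10 q below 1.32 (replicate 1) or 1.34 (replicate 2). Folds were used within a list only. No input values were used. Read totals were not used here, so summit pileups were solved from fold and −log10 p. Whole numbers fitted 100% of peaks (relative tolerance 0.0001), and the step was tested on simulated data. Intervals of folds are exact Poisson 95% intervals of the pileup with the background fixed. They cover counting error only, since PCR reads are not independent molecules, and p-values were not computed.

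Gene ends came from a RefSeq GRCm38.p6 table with 21779 protein-coding genes, after 340 gene rows lying in the first 3 Mb of a chromosome were left out. Strand and start sites came from a RefSeq promoter table and matched 17492 of these genes. Exons, introns and UTRs were not assigned. Python 3.11.15, pandas 2.3.3, numpy 2.4.6 and scipy 1.17.1 were used. Named genes were the 20 regions whose worse rank by −log10 p in the lists was best, up to 4 genes per list, genes next to the limits, the 5 widest regions, the 5 shortest genes and 15 genes of interest. Some genes that this rule names are not reported here. The members, lists and motifs were chosen with earlier results of these data known. Alternatives covered the overlap, the q threshold, both distance and length limits, neighbouring genes, tissue-restricted families and each library left out.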

Additional observations from a re-analysis of the deposited data

How the results depend on the processing

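The share of regions nearer the gene start stayed between 96.9% and 97.7% with an overlap of 50%, the stricter q, a limit of 500 bp and each list alone, and short genes stayed below longer ones in the settings compared. At a −log10 q of at least 5 there were 200 regions, 2.54% of short genes held one (5.5% of longer genes), the median folds were 5.86 and 6.21, and the median width was 728 bp. From 1 list alone there were 515 to 834 regions, at 6.44% to 10.3% of short genes (14.4% to 23.2% of longer genes), with median widths of 403 to 509 bp. The replicate 2 median fold was 4.83 without replicate 1, and the replicate 1 median 4.88 without replicate 2. With neighbours allowed there were 682 regions, at 9.56% of short genes. A limit of 3 kb gave 4.52%, a gene length of 5 kb gave 195 regions and 3.9%, and 20 kb gave 749 regions and 6.34%. Without tissue-restricted families the share was 6.43%. Among genes with 10 or more CG in the window, an alternative chosen after seeing the data, it was 13%. At the stricter q the share was 27.6% in cytosolic ribosomal protein genes, 13% in respiratory chain, 4% in snoRNP, 5.45% in Zfp and 0 in immediate early genes. Without replicate 1 it was 60.9% in cytosolic and 30.9% in mitochondrial ribosomal protein genes, 37.7% in respiratory chain, 40% in proteasome and 30.9% in Zfp genes. The cause was not tested, beyond the fewer or more peaks and genes that each setting admits. An overlap of 50% and a limit of 500 bp gave 400 and 411 regions. No paired analysis was possible because the results come from no test between groups, and only the ChIP libraries have peak lists. Summits of 16 and 26 reads limit the precision of single folds.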

Other observations

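Replicate 2 alone listed 405 peaks at short genes that had no replicate 1 peak within 1 kb. Counted over genes with neighbours allowed, 645 short genes (8.2%) had a peak of replicate 2 alone, against 14.9% of longer genes. The 405 peaks are therefore not particular to short genes. Their folds ran from 2.63 to 8.71, and 310 lay below the replicate 2 median of 5.35 of the shared members. The shared members were kept only where replicate 1 also had a peak. The 2 sets thus differ by selection, and the count of 310 is no separate result. The best-ranked, named after their values were seen, was at the calmodulin gene Calm3, with a fold of 7.24 (95% counting interval 5.41 to 9.5) on 50 reads. Mrps36 (7.91), the elongation factor gene Eef2 (7.52), the splicing-associated gene Pnn (7.96) and the ribosomal protein gene Rpl22l1 (6.67) followed among the best-ranked. The folds of these 5 lie above that median. Replicate 1 listed no peak within 1 kb of these genes, at a median summit pileup of 16 reads in that list.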
